A study of Homo sapiens with 18 samples.

Results

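The results below concern the difference between 2 melanoma cell lines, SKMEL2 and SKMEL30, in how their transcripts responded to 18 h of PPP2R3B overexpression. For each gene the log2 fold change of SKMEL30 (induced for 18 h against uninduced) was subtracted from that of SKMEL2, so a value above 0 marks a gene whose level moved up more, or down less, in SKMEL2. This value is called the line difference. Genes entered if they passed a filter on low counts in both lines, which kept 14079 of the 58051 genes counted. The comparison used 12 of the 18 RNA sequencing libraries, in 4 groups of 3.

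Both lines are NRAS-mutant and were infected with a lentiviral tet-ON vector, pTRIPZ-PPP2R3B, which expresses an N-terminally Myc-tagged PPP2R3B when doxycycline is added, and stable cells were selected with puromycin. All 4 groups carry this vector, the uninduced groups included. The groups were SKMEL2 Untreated, SKMEL2 Induced_18hours, SKMEL30 Untreated and SKMEL30 Induced_18hours, the induced ones with doxycycline, and all were grown in 6-well plates. A further treatment, induction for 6 h, shares the uninduced libraries and is used for side-by-side values. The labels give the later time as 18 h, whereas the study's methods name a different hour. No group received doxycycline without the PPP2R3B vector, so an effect of the drug and of PPP2R3B cannot be told apart, and the time at which uninduced cells were harvested is not given. Each line stands for a single transduced population, and no label says that its replicates were separate cultures, so p-values measure the spread between these libraries.

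PPP2R3B encodes PR70, a regulatory subunit that directs the protein phosphatase PP2A to its substrates, among them factors of DNA replication. PP2A removes phosphate groups that kinases add, and in melanocytic cells it acts on signalling that runs downstream of RAS. Several processes looked at here have known outputs at the level of mRNA. Heat shock factors raise cytosolic chaperones, MITF drives pigment genes and, with its relatives TFEB and TFE3, lysosomal genes, and LIF is a secreted cytokine that signals through gp130 and STAT3.

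The 12 libraries held 15552537 to 22383470 counts each. The spread between replicates was wider in SKMEL2, with a biological coefficient of variation of 8.36%, than in SKMEL30, with 4.11%. Of 8 melanocyte markers, 7 were above 100 CPM (a library's counts scaled to a common total, with factors from the trimmed mean of M values, TMM) in every library, and TYRP1 was at 3.50 to 6.48 CPM in SKMEL2. Markers of keratinocytes, fibroblasts, blood and endothelium summed to 7.70 to 23.2 CPM in SKMEL2 and, in SKMEL30, to 30.2 to 31.3 CPM in uninduced cells and 35.5 to 43.7 CPM at 18 h, which do not overlap, most of it from LUM at 27.15 to 27.32 CPM and 29.29 to 32.08 CPM, with CDH5 at 0 in SKMEL2 and CD3E at 0 in SKMEL30. Of these 11 markers, 4 could be tested (KRT5, KRT14, LUM and VWF), all with line differences below 0 and none at an unadjusted p under 0.05, and their part in the results was not tested. One library, replicate 3 of uninduced SKMEL2, stood apart in its mitochondrially encoded transcripts, which took 9.43% of its scaled counts against 6.66% and 6.32% in replicates 1 and 2, and values without it are given beside the results it moves most. In these bulk samples, fewer cells with a transcript and less of it per cell cannot be told apart.

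No difference between the lines in the induction of PPP2R3B itself was detected. PPP2R3B was at 24.8, 20.6 and 17.3 CPM in uninduced SKMEL2 and at 431, 519 and 486 CPM at 18 h, and at 22.2, 19.6 and 20.4 CPM in uninduced SKMEL30 and at 610, 606 and 607 CPM at 18 h. Reads from the transgene and from the cell's own PPP2R3B are not separated in these counts. Its log2 response was 4.53 in SKMEL2 and 4.87 in SKMEL30, a line difference of -0.34 (standard error 0.19, 95% interval -0.73 to 0.05, edgeR unadjusted p = 0.0821). C21orf91, the other gene whose induction the study follows, had a line difference of 0.15 (standard error 0.11, interval -0.08 to 0.39, edgeR unadjusted p = 0.191), from responses of 1.298 and 1.147. For both genes the interval includes 0, and it reaches up to 0.73 below 0 for PPP2R3B. MITF (0.06, interval -0.07 to 0.19) and CDC6 (-0.03, interval -0.17 to 0.11) also had intervals that include 0.

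Over all 14079 genes, the line difference was called for 1 gene, LIF, at a Benjamini-Hochberg adjusted p under 0.05 (edgeR's quasi-likelihood test), which is 0.0071% of the genes tested. At an unadjusted p under 0.05 there were 737 genes (5.23%), 364 of them above 0 (2.59%) and 373 below 0 (2.65%). With each library left out in turn these counts ran from 295 to 482 above 0 and from 244 to 563 below 0, lowest in both directions without replicate 3 of uninduced SKMEL2. The median line difference was 0.00, the quartiles were -0.09 and 0.10, and the median standard error of a gene was 0.13. A difference of more than 0.5 in size was found for 866 genes (6.15%), and of the 203 over 1 in size, 189 had a group with a mean under 2 CPM. At 6 h no gene was called by edgeR or by DESeq2 (0%), with 633 genes (4.5%) at an unadjusted p under 0.05, 327 above 0 (2.32%) and 306 below 0 (2.17%).

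Across the 14079 genes, the response in SKMEL2 and that in SKMEL30 had a Pearson correlation of -0.03 and a Spearman correlation of 0.01, and 49.7% of genes had the same sign in both; the lines share no library, genes are not independent replicates, and the responses of most genes were small beside their error. Among the 1318 of these genes with an unadjusted p under 0.05 in the separate edgeR fit of SKMEL30, whatever their p in SKMEL2, 54.8% had the same sign in SKMEL2. Among the 665 such genes of SKMEL2, 59.6% had the same sign in SKMEL30. Both sets include the 105 genes under 0.05 in both lines. The scatter of both responses shows C21orf91 and DLC1 close to the line of equal response and LIF far below it.

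**Figure D1:**
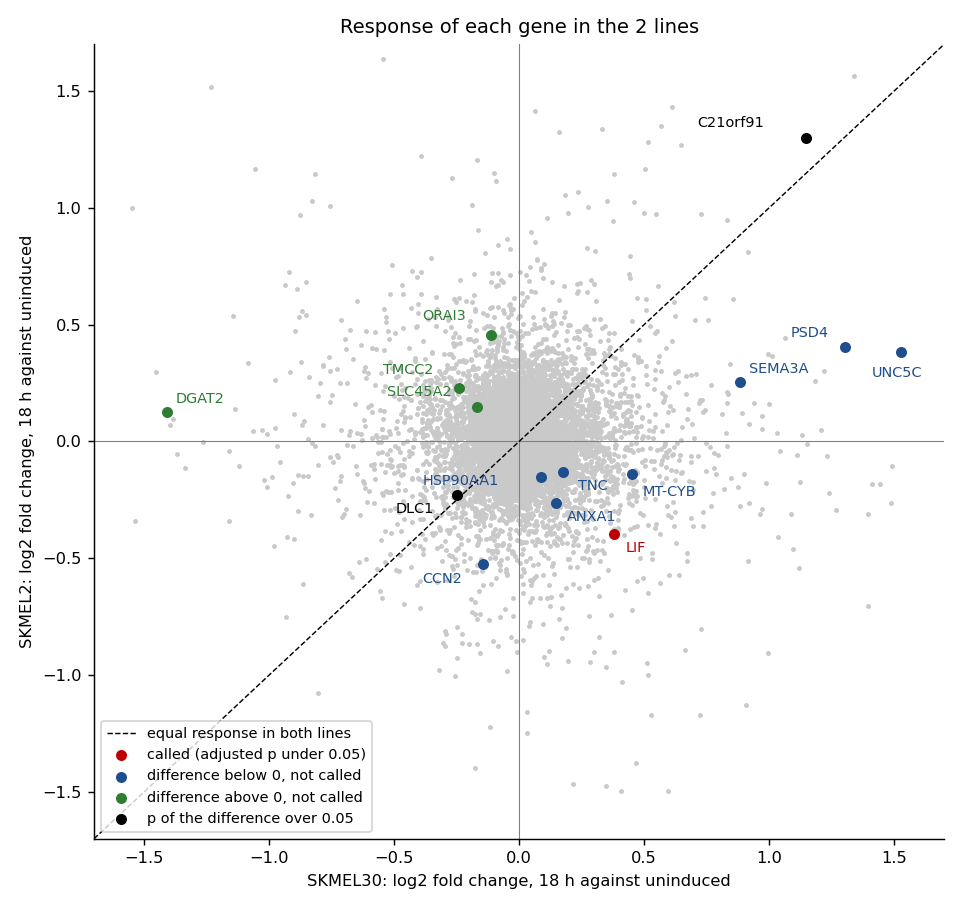
Log2 fold change at 18 h against uninduced cells in SKMEL30 (x axis) and SKMEL2 (y axis), each point 1 gene, with the dashed line marking equal response; 50 of 14079 genes, PPP2R3B among them, lie outside the axes. LIF (red) is at 0.38 in SKMEL30 and -0.39 in SKMEL2, UNC5C and SEMA3A lie far to the right of the dashed line, and C21orf91 and DLC1 lie close to it.

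LIF (ENSG00000128342, chromosome 22 of GRCh38.p14, 30240453 to 30246759) was lower with induction in SKMEL2 and higher with induction in SKMEL30. In SKMEL2 it was at 13.3, 15.6 and 15.1 CPM in uninduced cells and at 11.5, 11.1 and 10.97 CPM at 18 h. In SKMEL30 it was at 41.7, 43.6 and 46.3 CPM in uninduced cells and at 55.1, 56.0 and 60.1 CPM at 18 h. Induced and uninduced libraries did not overlap in either line, being lower in SKMEL2 and higher in SKMEL30. In the separate edgeR fit of each line, the rise in SKMEL30 was called (adjusted p = 0.00459) and the fall in SKMEL2 was not (adjusted p = 0.641). The line difference was -0.77 (standard error 0.10, 95% interval -0.98 to -0.57, adjusted p = 0.00445 by edgeR), which means that the ratio of induced to uninduced was 0.585 times as large in SKMEL2 as in SKMEL30. At 6 h the line difference was -0.28 (edgeR unadjusted p = 0.0119). The adjusted p stayed between 0.00139 and 0.0331 in the 12 fits that each left out 1 library, and rose to 0.0596 in a limma voom fit in which each line had its own weight.

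No difference was detected in the rest of the LIF pathway. Of 7 ligands of the IL6 type, 3 were expressed in both lines, and besides LIF these were CNTF (-0.29, edgeR unadjusted p = 0.317) and CLCF1 (0.53, unadjusted p = 0.353), both below 10 CPM. The receptor subunit LIFR was at 0.431 to 1.51 CPM in all 12 libraries, with a line difference of -0.35 (interval -1.37 to 0.68), too low for a difference of this size to be detectable. IL6ST, which encodes the shared subunit gp130, was at 193 to 221 CPM in SKMEL2 and 286 to 306 CPM in SKMEL30, with a line difference of -0.10 (interval -0.25 to 0.04). None of the 4 receptor subunits tested, of the 4 JAK and STAT3 transducers or of the 11 STAT3 targets and inhibitors tested had an unadjusted p under 0.05. The median line difference of those 11 genes was 0.13, and 8 of them lay above 0, the opposite side from LIF; it was 0.06 in a fit with a correction for GC content and transcript length.

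The gene ranked behind LIF was ANXA1 (ENSG00000135046, chromosome 9, 73151865 to 73170393), which encodes a phospholipid-binding protein with anti-inflammatory activity. It was at 113, 116 and 102.5 CPM in uninduced SKMEL2 and at 93.0, 94.99 and 88.4 CPM at 18 h. In SKMEL30 it was at 80.0, 82.1 and 82.6 CPM in uninduced cells and at 90.4, 88.6 and 91.6 CPM at 18 h. Again neither line had an overlap of induced and uninduced libraries, and the lines moved in opposite directions, with a line difference of -0.41 (standard error 0.07, interval -0.55 to -0.26). Its adjusted p was 0.0906 by edgeR, 0.000901 by DESeq2 and 0.0123 by edgeR without replicate 3 of uninduced SKMEL2. TNC, which encodes the matrix glycoprotein tenascin C, went from 1103, 1125 and 1140 CPM to 1022, 1013 and 1042 CPM in SKMEL2 and from 157, 161 and 145 CPM to 170, 181 and 173 CPM in SKMEL30. Its groups did not overlap in either line, and the line difference of -0.31 had an adjusted p of 0.702 by edgeR and 0.0496 by DESeq2.

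The other genes with the smallest p below 0 had adjusted p of 0.702 by edgeR and are given as a ranking. PPP4R3A, a regulatory subunit of protein phosphatase 4, had a line difference of -0.27 (standard error 0.06), with 82.2 to 85.6 CPM in uninduced SKMEL2 against 73.5 to 76.5 CPM at 18 h, and 79.5 to 81.9 CPM against 85.5 to 88.6 CPM in SKMEL30. FAM72A, whose reads can be shared with near-identical copies, had -0.73 (standard error 0.18). TYW3, which acts in tRNA modification, had -0.26 (standard error 0.06), and FAM3C2P, a pseudogene of FAM3C, had -0.50 (standard error 0.13). The unnamed gene ENSG00000279333 had -3.01 (standard error 0.74), a value that rests on few counts, since SKMEL2 was at 0, 0.169 and 0.443 CPM at 18 h. HSP90AA1 and SEMA3A also belong to these 10 genes and are described with their lists. In SKMEL2 the 18 h libraries lay below the uninduced ones for all of these but SEMA3A. All of these genes, LIF, ANXA1 and TNC included, were picked by the p of a difference in these same libraries. Separated groups follow in part from that choice and are a description, with no share over all genes beside them.

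**Figure D2:**
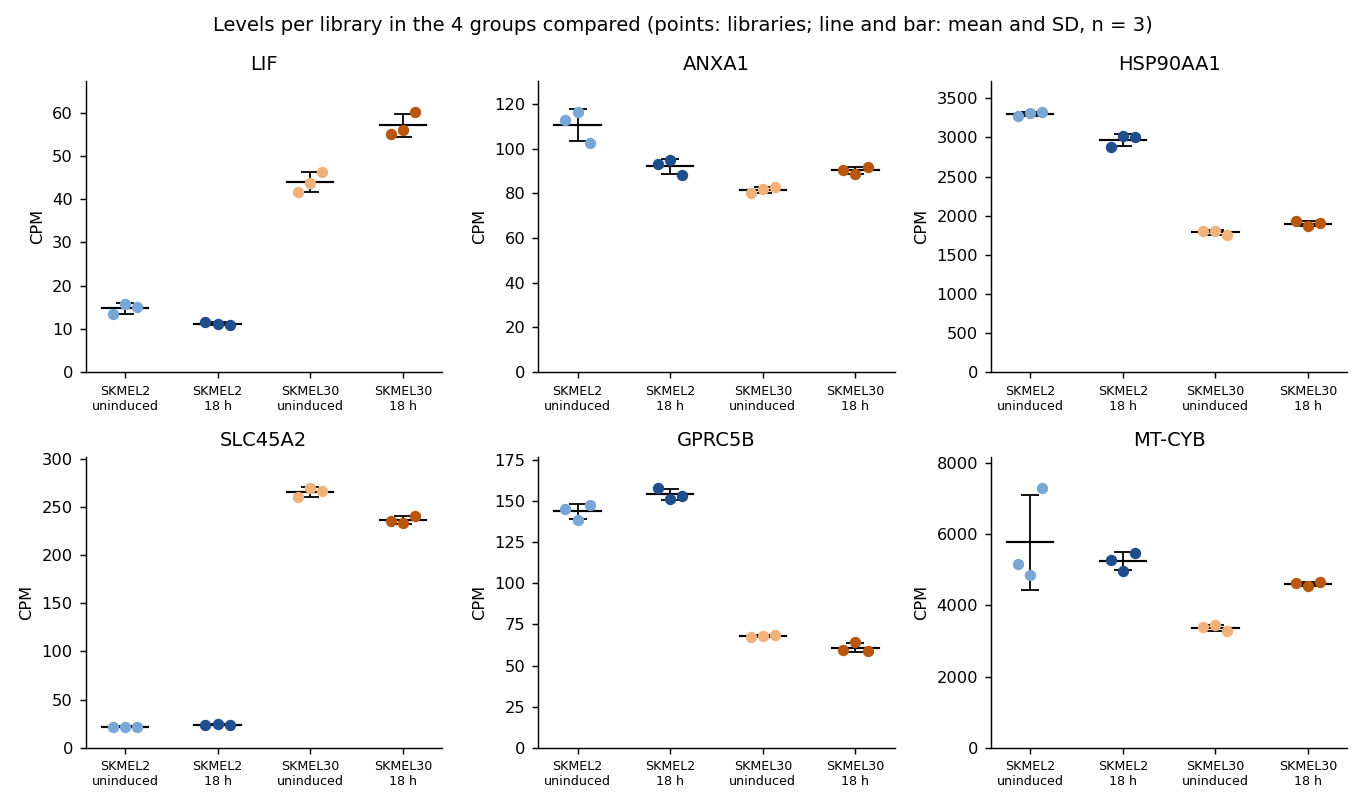
CPM of 6 genes in each library of the 4 groups (points), with the mean and SD over 3 libraries (line and bar). LIF, ANXA1 and HSP90AA1 are lower at 18 h in SKMEL2 and higher at 18 h in SKMEL30, SLC45A2 and GPRC5B show the reverse, and MT-CYB is higher at 18 h in SKMEL30, while in uninduced SKMEL2 replicate 3, at 7305 CPM, lies far above the other libraries of its group.

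Above 0 no gene was called by edgeR, and the ranking was led by SLC45A2 (ENSG00000164175), a transporter of the melanosome needed for pigment. Its levels were 21.9, 21.1 and 21.9 CPM in uninduced SKMEL2 and 23.4, 24.4 and 24.0 CPM at 18 h. In SKMEL30 they were 260, 270 and 266 CPM in uninduced cells and 236, 233 and 241 CPM at 18 h. Both lines had groups that did not overlap, higher with induction in SKMEL2 and lower with induction in SKMEL30. The line difference was 0.31 (standard error 0.06, interval 0.18 to 0.45, adjusted p = 0.457 by edgeR).

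The next genes above 0 had adjusted p of 0.702 to 0.705 by edgeR. TMCC2 had a line difference of 0.47 (standard error 0.11), with 11.3 to 13.8 CPM in uninduced SKMEL2 against 14.5 to 15.6 CPM at 18 h, and 46.5 to 47.8 CPM against 38.0 to 42.1 CPM in SKMEL30. GPRC5B, an orphan G protein-coupled receptor, had 0.26 (standard error 0.06), and in it too the groups did not overlap in either line. For UCK1, a uridine-cytidine kinase (0.36, standard error 0.09), both lines had groups that did not overlap. ORAI3, a subunit of store-operated calcium channels, had 0.57 (standard error 0.14), from 9.36 to 10.49 CPM to 12.6 to 14.5 CPM in SKMEL2, while the SKMEL30 libraries overlapped. The neuronal enolase ENO2 had 0.26, AP5B1, a subunit of the AP-5 adaptor complex, 0.60, the arrestin-family gene ARRDC3 0.44, and PRADC1 0.61. DGAT2, the enzyme of the last step of triglyceride synthesis, had the largest value of these, 1.53 (standard error 0.37), and its SKMEL30 libraries were all below 1 CPM. AP5B1 and PRADC1 were low in SKMEL2, at 2.13 to 4.04 CPM and 2.55 to 4.18 CPM. In the fit corrected for GC content and transcript length, ARRDC3 moved to 0.48. The other genes of this paragraph moved toward 0, among them TMCC2 (0.39), UCK1 (0.30), ENO2 (0.22) and AP5B1 (0.53). In SKMEL2 the induced libraries lay above the uninduced ones for SLC45A2, TMCC2, GPRC5B, ORAI3, UCK1, ENO2, AP5B1, ARRDC3 and PRADC1. As for the genes below 0, this separation follows in part from how the genes were picked and is a description.

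Few genes passed a threshold in both lines. An unadjusted p under 0.05 in the separate fit of each line was found for 105 genes (0.746% of those tested), 81 with the same sign and 24 with opposite signs (0.17%). The same sign was thus held by 77.1% of them, against 49.7% of all genes tested. They came from 1318 such genes in SKMEL30 and 665 in SKMEL2. How many would coincide in unrelated lines was not computed, so the 24 are a description and not a class of opposite responders. Those with opposite signs were led by LIF, ANXA1, PPP4R3A, FAM72A, TNC and HSP90AA1, all lower with induction in SKMEL2 and higher in SKMEL30. Among those with the same sign, the line difference was furthest from 0 by its p for SEMA3A, PCLO, CNN3, DNM3, MICAL2 and PSD4. SEMA3A, a secreted axon guidance cue, was at 21.2 to 23.3 CPM in uninduced SKMEL2 and 25.2 to 28.8 CPM at 18 h, and went from 8.65 to 12.1 CPM up to 16.3 to 21.1 CPM in SKMEL30. No group overlapped in either line, and the line difference was -0.63 (standard error 0.15, edgeR unadjusted p = 0.000599). PSD4 (-0.90, unadjusted p = 0.0402) and PCLO (-0.61, unadjusted p = 0.0104) also had the larger response in SKMEL30, where uninduced levels were under 1 and under 4 CPM, as did DNM3, downward (0.82, unadjusted p = 0.0303). The actin-binding genes CNN3 (-0.15, unadjusted p = 0.0176) and MICAL2 (-0.26, unadjusted p = 0.0384) had the larger downward response in SKMEL2.

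Within a line at an adjusted p under 0.05 by edgeR, 44 genes were called in SKMEL30 (0.293% of 15026) and 2 in SKMEL2 (0.0124% of 16120), PPP2R3B and C21orf91, both also called in SKMEL30. The spread between replicates was wider in SKMEL2 (8.36% against 4.11%), so these counts do not compare the size of the responses. THBS1, at -0.38 in SKMEL2 and -0.32 in SKMEL30, was called only in SKMEL30. Of the 44 genes, 42 were expressed in both lines, of which 29 had the same sign in SKMEL2 and 33 a smaller response there. Because these genes were chosen on the SKMEL30 response, which is part of the line difference, a smaller response in SKMEL2 is a description and not a test. The 42 genes included 15 with an unadjusted p under 0.05 for the line difference, against 5.23% of all genes tested, and 1, LIF, with an adjusted p under 0.05. The same choice makes a small p more likely, so this count is a description too. MT-CYB, MT-ND3, MT-ATP6, MT-ATP8, MT-ND2 and the related MTATP6P1 were among the 15 and are not separate cases. The netrin receptor gene UNC5C was at 4.89, 5.20 and 5.44 CPM in uninduced SKMEL30 and at 13.5, 14.1 and 17.2 CPM at 18 h, whereas SKMEL2 had 0.843 to 2.02 CPM and 1.38 to 2.14 CPM, which overlap. Its line difference was -1.14 (standard error 0.30, interval -1.77 to -0.52, edgeR unadjusted p = 0.00118), and at 6 h it was -1.21. At the other end, SNAI2, DLC1, CCN1, ADCY1 and MT2A had line differences close to 0, of 0.07, 0.02, -0.07, -0.03 and 0.01. For DLC1 the responses were -0.23 in SKMEL2 and -0.25 in SKMEL30, and the interval of the difference was -0.11 to 0.15. For CCN1, a matricellular target of YAP, the responses were -0.55 and -0.48 and the interval was wide, from -0.52 to 0.38. The remaining 2 genes could not be compared, as SKMEL2 did not express them at a testable level. SKAP1, an adaptor known from T cells, had 138 to 212 counts in uninduced SKMEL30 and 24 to 39 at 18 h, and 0 to 6 counts in SKMEL2. PEDS1-UBE2V1, a readthrough of neighbouring genes, was at 0 in most libraries.

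Gene lists were compared by the median line difference of their members and by the number of members with an unadjusted p under 0.05, set against 0.00 and against 2.59% above 0 and 2.65% below 0 over all genes. Counts of members on 1 side of 0 are to be read against all genes tested, of which 7151 (50.8%) lay above 0 and 6928 below 0. With each library left out in turn, 6896 to 7274 lay above 0. No list member other than LIF was called after adjustment over all genes. The line difference also moved with base composition, its median going from -0.03 in the fifth of genes with the lowest GC content to 0.07 in the fifth with the highest, so medians from a fit corrected for GC content and length are added for lists described at length and for those moved by over 1.5 times. Counts of list members in a fit without 1 library are to be read against the 295 to 482 genes above 0 and 244 to 563 below 0 of those fits. Members of a list are regulated together and are not independent. Members and lists were chosen with earlier results of these data known, so a count above the share of all genes is a description and not a test.

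**Figure D3:**
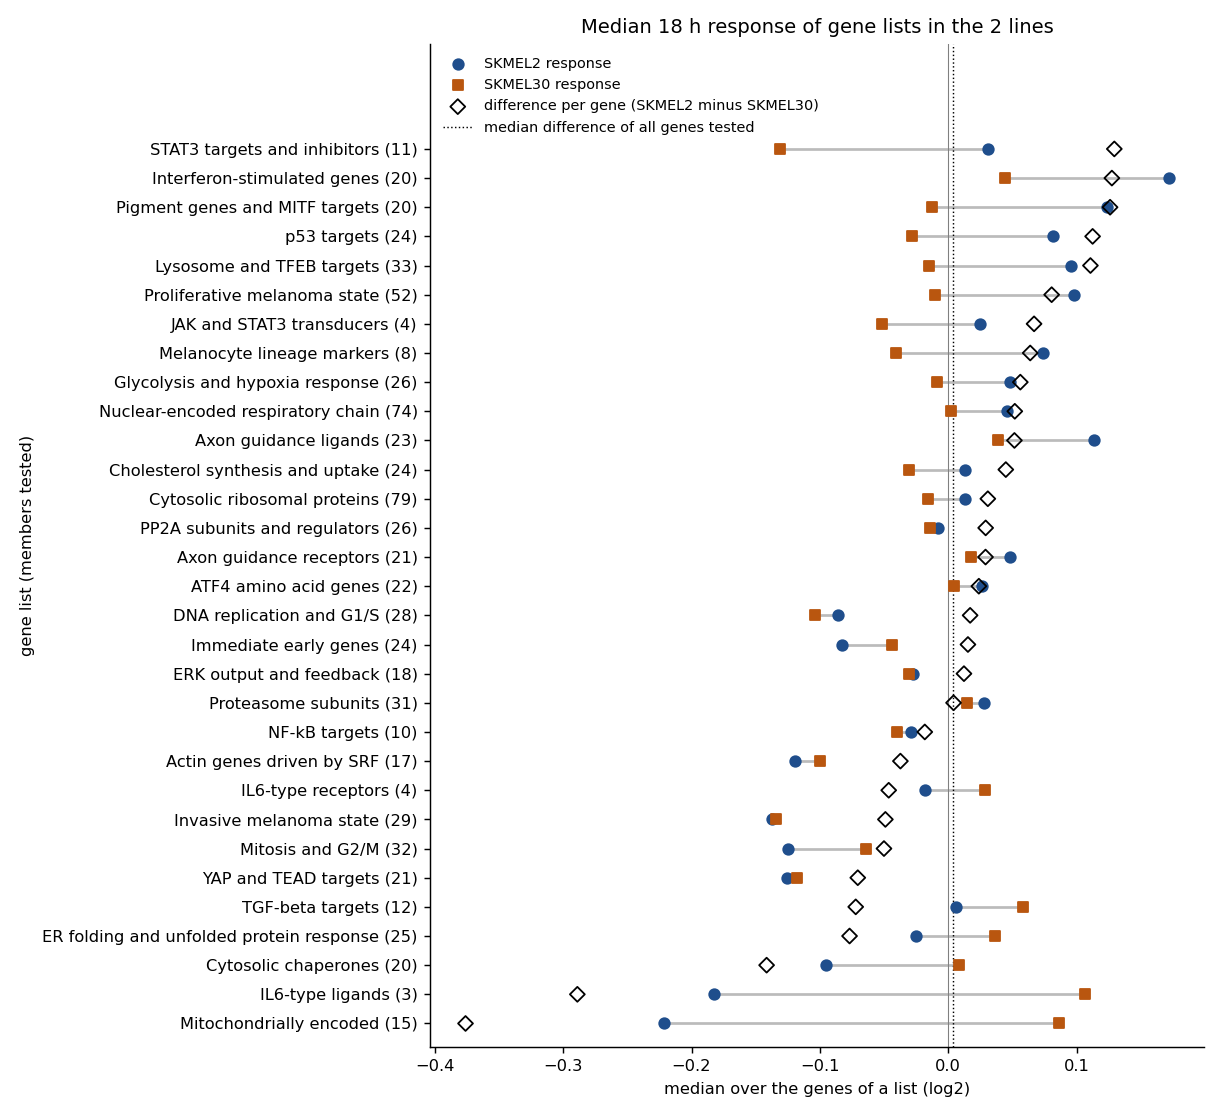
Median log2 response at 18 h over the members of each gene list, apart from markers of other cell types, in SKMEL2 (circles) and SKMEL30 (squares), with the median of the members' line differences (diamonds), ordered by the latter. Mitochondrially encoded genes (-0.38) and cytosolic chaperones (-0.14) lie furthest to the left among lists of more than 10 genes, and STAT3 targets (0.13), interferon-stimulated genes (0.13), pigment genes (0.13), p53 targets (0.11) and lysosomal genes (0.11) lie furthest to the right.

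Cytosolic chaperones, which fold newly made and damaged proteins, lay mostly below 0, on the side of a lower response in SKMEL2. Of 20 genes, 18 had a line difference below 0, with a median of -0.14 (-0.14 with the GC and length correction), from median responses of -0.10 in SKMEL2 and 0.01 in SKMEL30. An unadjusted p under 0.05 was found for 8 members below 0, by edgeR, and for none above 0. Their summed level was 14527 to 14936 CPM in uninduced SKMEL2 against 13261 to 13799 CPM at 18 h, and 12006 to 12401 CPM against 12201 to 12460 CPM in SKMEL30. The groups did not overlap in SKMEL2 and overlapped in SKMEL30. That pattern was not particular to this list. Amino acid genes driven by ATF4, with a median line difference of 0.02, went from 2384 to 2419 CPM up to 2457 to 2549 CPM in SKMEL2 and overlapped in SKMEL30. The sums of interferon-stimulated genes and of p53 targets had it too. The 8 members became 4 without replicate 3 of uninduced SKMEL2 and 4 without replicate 1 of SKMEL2 at 18 h, and 5 without replicate 2 of uninduced SKMEL30, while the median stayed between -0.17 and -0.12 in all 12 such fits. At 6 h the median was -0.05.

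HSP90AA1, the stress-inducible form of the HSP90 chaperone, was at 3274, 3312 and 3322 CPM in uninduced SKMEL2 and at 2879, 3023 and 3005 CPM at 18 h. In SKMEL30 it was at 1798, 1802 and 1753 CPM in uninduced cells and at 1925, 1862 and 1906 CPM at 18 h. The groups did not overlap in either line, and the line difference was -0.24 (standard error 0.06, adjusted p = 0.702 by edgeR and 0.0483 by DESeq2). HSPA1A, an inducible HSP70, was at 157, 163 and 174 CPM in uninduced SKMEL2 and at 132, 139 and 138 CPM at 18 h, whereas in SKMEL30 it was at 262 to 276 CPM and 260 to 296 CPM. Its line difference was -0.31 (standard error 0.08, edgeR unadjusted p = 0.00125). That of its near-identical neighbour HSPA1B, between which and HSPA1A reads are split by estimate, was -0.27 (unadjusted p = 0.00426). The constitutive HSP70 gene HSPA8 had -0.19 (unadjusted p = 0.017), the HSP90 cochaperones STIP1 and AHSA1 -0.20 and -0.14, HSPH1, which exchanges nucleotide on HSP70, -0.15, and the HSP40 gene DNAJA1 -0.16. The members above 0 were DNAJB4 (0.11) and DNAJB1 (0.00).

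Promoters of chaperones are shown because most members lay on the same side of 0 and a known element, the heat shock element, can be searched for in them. It was searched for as GAANNTTC, which reads the same on both strands, in the 250 bases before the start site in RefSeq (GRCh38.p14), with the element in capitals and each sequence written 5′ to 3′ on the strand of the gene. The HSPA1A sequence is chr6:31815293-31815542 (plus strand), that of HSPA8 is chr11:123062137-123062386 (minus strand), and that of HSP90AA1, at the start site of its 2 with the element, is chr14:102087045-102087294 (minus strand).
HSPA1A: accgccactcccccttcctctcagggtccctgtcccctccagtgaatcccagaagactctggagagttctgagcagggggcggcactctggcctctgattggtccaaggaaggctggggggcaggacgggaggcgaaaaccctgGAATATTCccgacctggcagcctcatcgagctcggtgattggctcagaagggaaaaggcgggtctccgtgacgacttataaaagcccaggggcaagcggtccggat
HSPA8: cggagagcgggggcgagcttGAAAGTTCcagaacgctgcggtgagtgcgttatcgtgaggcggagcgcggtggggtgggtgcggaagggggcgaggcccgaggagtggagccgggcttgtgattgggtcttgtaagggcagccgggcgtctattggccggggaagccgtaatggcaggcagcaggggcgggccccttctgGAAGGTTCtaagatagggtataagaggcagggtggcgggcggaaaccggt
HSP90AA1: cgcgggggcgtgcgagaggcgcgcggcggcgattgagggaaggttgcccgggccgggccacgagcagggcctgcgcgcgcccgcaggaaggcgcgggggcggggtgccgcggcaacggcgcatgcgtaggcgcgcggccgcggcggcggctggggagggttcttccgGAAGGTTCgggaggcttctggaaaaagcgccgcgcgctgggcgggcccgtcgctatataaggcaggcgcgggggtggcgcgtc
Of the 18 chaperones with a promoter in the table, 11 held the element in at least 1 promoter, against 5.78% of all 35116 promoters and 4.26% of those of genes tested. The 11 counts genes, some with more than 1 promoter, whereas the shares count promoters. Chaperones are known targets of heat shock factors, so this count describes the list and not the line difference. The 11 included HSPA1A, HSPA1B, HSPA8, HSP90AA1 and DNAJA1, which had an unadjusted p under 0.05, and also DNAJB1 (0.00), HSP90AB1 (-0.05) and HSPB1 (-0.06), which did not. The other members under 0.05, HSPH1, STIP1 and AHSA1, had promoters without it.

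Genes of folding in the endoplasmic reticulum (ER) and of the unfolded protein response lay nearer to 0. Of 25 genes, 19 had a line difference below 0, with a median of -0.08 (-0.06 with the correction), and 4 had an unadjusted p under 0.05 by edgeR, all below 0. These were HSPA5, the main ER chaperone (-0.18, unadjusted p = 0.00825), the secreted folding factor MANF (-0.21, unadjusted p = 0.0245), HSP90B1 (-0.15, unadjusted p = 0.0334) and ATF4 (-0.14, unadjusted p = 0.0345). HSPA5 was at 753 to 774 CPM in uninduced SKMEL2 and at 687 to 731 CPM at 18 h, which did not overlap, whereas the SKMEL30 libraries, at 777 to 834 CPM and 810 to 888 CPM, did. The 4 members became 2 without replicate 3 of uninduced SKMEL2, and also 2 without any of 4 SKMEL30 libraries (uninduced replicates 2 and 3 and 18 h replicates 1 and 3). Amino acid genes driven by ATF4 had a median of 0.02 over 22 genes (0.0130 with the correction), 12 of them above 0, and 2 members at an unadjusted p under 0.05, both above 0, TRIB3 (0.27, unadjusted p = 0.0328) and the amino acid transporter subunit SLC3A2 (0.23, unadjusted p = 0.0484).

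Among lists with more than 10 genes tested, mitochondrially encoded transcripts had the largest median line difference, -0.38 over 15 genes (-0.38 with the correction), with median responses of -0.22 in SKMEL2 and 0.09 in SKMEL30. Of the 15, 14 lay below 0 and 7 had an unadjusted p under 0.05, all below 0 (edgeR). MT-CYB, which encodes cytochrome b of respiratory complex III, was at 3383, 3453 and 3270 CPM in uninduced SKMEL30 and at 4638, 4539 and 4650 CPM at 18 h. In SKMEL2 it was at 5162, 4860 and 7305 CPM in uninduced cells and at 5285, 4965 and 5481 CPM at 18 h. The SKMEL30 groups did not overlap, and in SKMEL2 replicates 1 and 2 of the uninduced cells were within the range of the 18 h libraries or just below it. The line difference was -0.59 (standard error 0.16, unadjusted p = 0.00135), and -0.39 without replicate 3 of uninduced SKMEL2.

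The same held for the complex I subunit gene MT-ND3 (-0.50, and -0.31 without that library) and the ATP synthase subunit gene MT-ATP6 (-0.52, and -0.29 without it). Both rose in SKMEL30 at an adjusted p under 0.05 (edgeR), from 714 to 741 CPM to 934 to 989 CPM for MT-ND3 and from 3519 to 3764 CPM to 4794 to 5005 CPM for MT-ATP6. For the whole list, the median without replicate 3 was -0.14, with 3 members below 0 and 1 above 0 at an unadjusted p under 0.05. The count was 11 without either of the other uninduced SKMEL2 libraries, and 4 without replicate 2 of SKMEL2 at 18 h, replicate 3 of uninduced SKMEL30 or replicates 1 or 3 of SKMEL30 at 18 h. The transcripts did not all move alike in SKMEL30, where MT-ATP8 (0.46), MT-CYB (0.45), MT-ATP6 (0.42) and MT-ND3 (0.40) had the largest responses, MT-CO1 (-0.03), MT-ND5 (0.00) and MT-ND4 (0.01) stayed near 0, and the rRNA MT-RNR2 had -0.34. MT-RNR2 was the member above 0, with a line difference of 0.12. Reads of these genes can also match nuclear copies. Library preparation captured mRNA by its poly(A) tail, so these levels are those of polyadenylated transcripts as counted.

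Nuclear genes of the respiratory chain had a median of 0.05 over 74 genes, which was 0.0026 without replicate 3 of uninduced SKMEL2. At an unadjusted p under 0.05 by edgeR were 3 members above 0, or 4.05% against 2.59% over all genes (1 to 6 members with each library left out), namely NDUFS7 (0.31), UQCRFS1 (0.16) and COX8A (0.22). Cytosolic ribosomal proteins (79 genes, median 0.03, none at an unadjusted p under 0.05) and proteasome subunits (31 genes, median 0.0041, and -0.0037 with the correction, PSMB6 at 0.23 above 0) were close to the median of all genes.

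**Figure D4:**
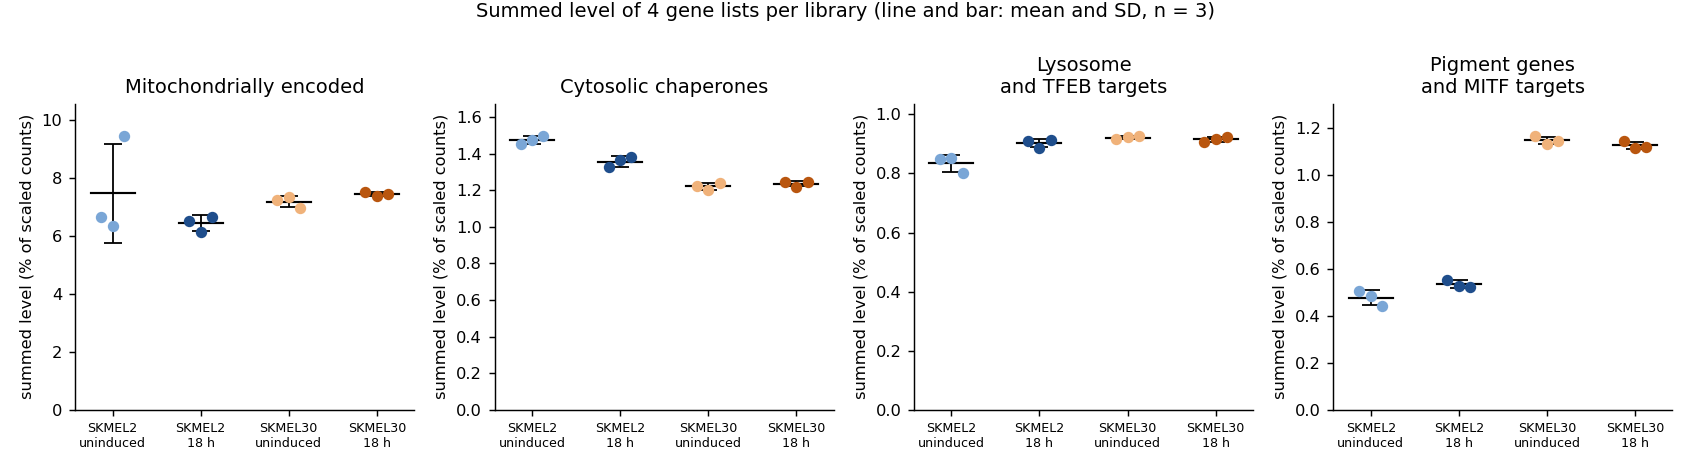
Summed level of 4 gene lists in each library, as a percentage of the TMM-scaled counts, with the mean and SD over 3 libraries. Replicate 3 of uninduced SKMEL2 stands at 9.43% for mitochondrially encoded genes, against 6.32% and 6.66% in the other libraries of that group; the chaperone sum is lower, and the lysosomal and pigment sums are higher, in all 3 induced SKMEL2 libraries, while the SKMEL30 groups overlap in these last 3 lists.

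Pigment genes and MITF targets, which make and move melanosomes, had a line difference above 0 for 18 of 20 genes. Their median was 0.13 (0.10 with the correction), from median responses of 0.12 in SKMEL2 and -0.01 in SKMEL30. Those with an unadjusted p under 0.05 by edgeR were 5, all above 0. They were SLC45A2, already described, TBC1D16, which regulates endosomal Rab proteins (0.24, unadjusted p = 0.0138), RAB27A, which carries melanosomes along actin (0.24, unadjusted p = 0.024), ACP5 (0.19, unadjusted p = 0.03) and the melanosomal receptor gene GPR143 (0.33, unadjusted p = 0.0302). The summed level was 5046, 4819 and 4425 CPM in uninduced SKMEL2 and 5520, 5244 and 5231 CPM at 18 h, and 11309 to 11619 CPM against 11113 to 11424 CPM in SKMEL30. The SKMEL2 groups did not overlap, and those of SKMEL30 did, as was also the case for amino acid genes driven by ATF4. PMEL, which forms the fibrils of the melanosome, was at 1764, 1651 and 1318 CPM in uninduced SKMEL2 and at 2014, 1870 and 1824 CPM at 18 h, and its line difference was 0.29 (interval -0.0037 to 0.57, unadjusted p = 0.0527). The 5 members became 2 without replicate 3 of uninduced SKMEL2 or replicate 1 of SKMEL2 at 18 h, and 3 without replicate 2 of uninduced or of induced SKMEL30, with the median between 0.11 and 0.14.

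The list of the proliferative melanoma state, which shares members with the pigment list, gave 39 of 52 genes above 0 and a median of 0.08 (0.07 with the correction). Those with an unadjusted p under 0.05 by edgeR were 11, all above 0, against 5 without replicate 3 of uninduced SKMEL2 and 6 without replicate 1 of SKMEL2 at 18 h. Besides members of the pigment list they included GPRC5B (0.26), FAM174B (0.35), the inhibitor of apoptosis gene BIRC7 (0.50), HPS4, which acts in melanosome biogenesis (0.17), ASAH1 (0.19) and DAPK1 (0.21). FAM174B went from 15.4 to 16.7 CPM to 18.8 to 20.0 CPM in SKMEL2 and was at 8.65 to 10.3 CPM and 8.91 to 9.58 CPM in SKMEL30. For the invasive state, 19 of the 29 genes tested lay below 0, with a median of -0.05 and 1 member on each side at an unadjusted p under 0.05, the kinase gene NUAK1 (0.86) and TPM1 (-0.24). Of the 8 melanocyte markers 7 lay above 0, with a median of 0.06.

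Lysosomal genes and TFEB targets also lay above 0, for 26 of 33 genes, with a median of 0.11 (0.11 with the correction) and median responses of 0.10 in SKMEL2 and -0.02 in SKMEL30. Their summed level was 8487, 8529 and 8018 CPM in uninduced SKMEL2 and 9098, 8864 and 9121 CPM at 18 h, against 9157 to 9254 CPM and 9068 to 9243 CPM in SKMEL30. The 3 induced SKMEL2 libraries lay above the uninduced ones, and those of SKMEL30 overlapped, again as for amino acid genes driven by ATF4. An unadjusted p under 0.05 was found by edgeR for 6 members, all above 0, and for 3 without replicate 3 of uninduced SKMEL2. FLCN, which encodes folliculin, a regulator of mTORC1 at the lysosome, was at 13.5, 15.2 and 12.8 CPM in uninduced SKMEL2 and at 18.4, 16.8 and 16.4 CPM at 18 h. In SKMEL30 it was at 32.6 to 33.8 CPM and 30.8 to 33.2 CPM, which overlap, and the line difference was 0.36 (standard error 0.10, unadjusted p = 0.00241). The others were the protease gene CTSF (0.27, unadjusted p = 0.00569), the acid ceramidase gene ASAH1 (0.19, unadjusted p = 0.0199), the proton pump subunit gene ATP6V1H (0.24, unadjusted p = 0.0249), the sialidase gene NEU1 (0.26, unadjusted p = 0.0327) and the sulfatase gene SGSH (0.28, unadjusted p = 0.0466).

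Promoters of CTSF and NEU1 are printed for the E-box CACGTG, the core of the element bound by MITF, TFEB and TFE3. It reads the same on both strands and was searched for in the same 250 bases of RefSeq promoters (GRCh38.p14), with the element in capitals. The CTSF sequence is chr11:66568607-66568856 (minus strand) and that of NEU1 is chr6:31862822-31863071 (minus strand).
CTSF: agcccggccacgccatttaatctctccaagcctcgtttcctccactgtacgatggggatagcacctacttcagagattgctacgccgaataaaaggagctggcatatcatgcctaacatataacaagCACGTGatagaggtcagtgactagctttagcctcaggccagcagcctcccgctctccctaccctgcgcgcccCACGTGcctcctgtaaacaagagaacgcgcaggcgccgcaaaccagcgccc
NEU1: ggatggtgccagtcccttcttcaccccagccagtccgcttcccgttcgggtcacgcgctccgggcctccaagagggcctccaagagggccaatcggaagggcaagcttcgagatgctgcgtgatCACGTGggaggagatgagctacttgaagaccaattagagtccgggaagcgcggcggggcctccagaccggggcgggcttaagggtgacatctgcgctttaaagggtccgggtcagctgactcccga
Of the 17 lysosomal genes with a promoter in the table, 9 held the E-box, against 6.34% of all promoters and 8.43% of those of genes tested, and 2 of 18 chaperones held it. Here too the counts are of genes and the shares are of promoters. The list was written to hold TFEB targets, so its count with the E-box describes the list and not the line difference. No promoter of the 17 lysosomal genes held GAANNTTC. Besides CTSF and NEU1 the 9 included RRAGC (0.18), CTSD (0.19) and FNIP1 (-0.04). The promoter of FLCN, the lysosomal member with the smallest p, did not hold it.

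**Figure D5:**
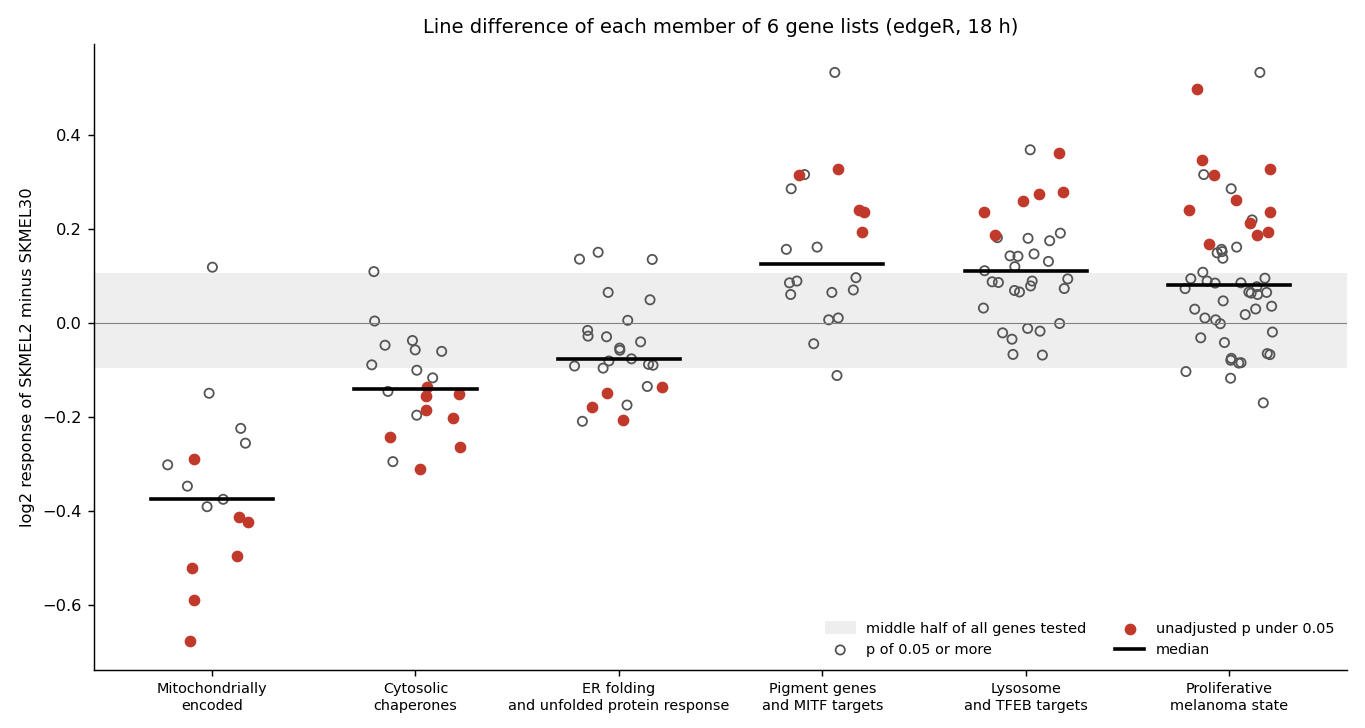
Line difference of each member of 6 gene lists (y axis, log2 response of SKMEL2 minus SKMEL30), filled red where the unadjusted edgeR p was under 0.05, with a black line at the list's median and a grey band between the quartiles of all genes tested (-0.09 and 0.10). The mitochondrially encoded members reach -0.68 and the chaperones -0.31, and every red point of the pigment, lysosomal and proliferative lists lies above 0.

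Genes linked to cell shape and to growth signals had median line differences near 0. YAP and TEAD targets had median responses of -0.13 in SKMEL2 and -0.12 in SKMEL30, and a median line difference of -0.07 over 21 genes. Among them CCN2, a secreted matrix protein, had an unadjusted p under 0.05 by edgeR, going from 128, 145 and 149 CPM to 95.9, 94.9 and 102 CPM in SKMEL2 and from 15.9 to 16.6 CPM to 12.2 to 16.8 CPM in SKMEL30, a line difference of -0.38 (unadjusted p = 0.0356). Actin genes driven by SRF had a median of -0.04 over 17 genes (-0.08 with the correction, 0.0009 without replicate 3 of uninduced SKMEL2), with CNN3, MICAL2 and TPM1 below 0 at an unadjusted p under 0.05. Those 3 members became 0 without replicate 2 of uninduced SKMEL2 or replicate 1 of SKMEL2 at 18 h, and 1 without any of 6 other libraries. ERK output genes (18 genes, median 0.01, and 0.0042 with the correction) and immediate early genes (24 genes, median 0.02, and -0.03 with it) shared the 1 member under an unadjusted p of 0.05, IER3 (-0.32, unadjusted p = 0.0132).

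Inflammatory and stress lists were mixed. Of the 10 NF-kB targets tested, the chemokine gene CXCL1 had -0.65 (edgeR unadjusted p = 0.0139) and TNFAIP2 had 1.15 (unadjusted p = 0.0195), both under 15 CPM, around a median of -0.02 (-0.07 with the correction). Interferon-stimulated genes had a median of 0.13 over 20 genes with ISG20 (0.26, unadjusted p = 0.0368) above 0, and that median was -0.06 without replicate 1 of uninduced SKMEL30 and -0.0026 without replicate 1 of SKMEL30 at 18 h. The 12 TGF-beta targets tested had a median of -0.07 (-0.12 with the correction) and no member under 0.05. Targets of p53 had 19 of 24 genes above 0 and a median of 0.11 (0.08 with the correction), with the cyclin gene CCNG1 (0.17, unadjusted p = 0.0131) under 0.05; it went from 119 to 131 CPM to 142 to 152 CPM in SKMEL2 and was at 178 to 190 CPM and 188 to 197 CPM in SKMEL30. Without replicate 1 of uninduced SKMEL2, 5 p53 targets above 0 and 1 below 0 were under 0.05.

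No line difference was detected in cell cycle genes. Genes of DNA replication and G1/S had median responses of -0.09 in SKMEL2 and -0.10 in SKMEL30 and a median line difference of 0.02 over 28 genes (-0.0093 with the correction). Genes of mitosis and G2/M had -0.13 and -0.06 and a median line difference of -0.05 over 32 genes, 25 of them below 0. That tally depended on single libraries, with 4 to 17 mitosis genes above 0, the 17 without replicate 1 of SKMEL2 at 18 h. No member of either list had an unadjusted p under 0.05 by edgeR, and at most 2 in either direction had one with a library left out. The 26 subunits and regulators of PP2A tested had a median of 0.03 (0.0126 with the correction) and no member under 0.05, the nearest being the scaffold subunit gene PPP2R1A (0.18, unadjusted p = 0.0686).

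In metabolism, glycolysis and hypoxia genes had a median of 0.06 over 26 genes (0.0339 with the correction), with ENO2 (0.26, unadjusted p = 0.000917 by edgeR) and NDRG1 (0.27, unadjusted p = 0.0155) above 0. NDRG1 was at 19.8 to 21.5 CPM in uninduced SKMEL2 and 24.9 to 26.5 CPM at 18 h, and the SKMEL30 libraries, at 30.2 to 36.4 CPM and 33.4 to 34.7 CPM, overlapped. Cholesterol genes had a median of 0.04 over 24 genes (0.0175 with the correction), with TM7SF2 (-0.46, unadjusted p = 0.0433) below 0 at levels under 8 CPM. Axon guidance ligands (23 genes, median 0.05) held SEMA3A below 0 and SEMA4C above 0 (0.29, unadjusted p = 0.0126), and receptors (21 genes, median 0.03) held UNC5C. The axon guidance medians became -0.01 and -0.05 with the correction for GC content and length.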

How the data were processed

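RNA from 18 libraries (6 groups of 3) was sequenced by the authors as 43-base paired reads after KAPA mRNA HyperPrep, aligned with STAR and counted with RSEM on GRCh38; versions of the trimming and alignment tools differ between sources. The deposited values are RSEM expected counts per gene, not normalised, and 12.4% of them were not whole. Whether counting used strand is not given in the sources used here, so overlapping genes may share reads. They were rounded and fitted with edgeR 4.0.16 (R 4.3.3, TMM factors, quasi-likelihood test) over all 18 libraries with 6 group means, on genes that passed filterByExpr in both lines' libraries, and p-values were Benjamini-Hochberg adjusted over 14079 genes. Printed responses of a line are from this fit, and p-values and calls within a line from separate fits of its 9 libraries. The fit of 18 libraries takes 1 spread per gene for both lines, although replicates spread more in SKMEL2. Named genes were the 10 with the smallest p on each side of 0, those the study follows, and members of 32 gene lists; members and lists were chosen with earlier results of these data known. Alternatives used DESeq2 1.42.0, limma 3.58.1, other filters and each library left out. In a test on simulated data over 14079 genes, a line difference of 1 was called for 66% of 100 changed genes and one of 0.5 for 41%. Both sizes were planted in the same data, with the spread of each line's trend and no outlying library, so recovery in the real data may be lower.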

Additional observations from a re-analysis of the deposited data

Results flagged for a closer look

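LIF was singled out because its response to induction differed between the lines by a test of the difference itself. The line difference was -0.77 on the log2 scale (adjusted p = 0.00445 by edgeR), from a response of -0.39 in SKMEL2 and 0.38 in SKMEL30. All 3 induced libraries lay below the 3 uninduced ones in SKMEL2, and above them in SKMEL30. The fall in SKMEL2 was not called in the separate fit of that line (adjusted p = 0.641 by edgeR). Groups of 3 libraries are too small for a formal check for single outlying samples, so none was made. In the fits that each left out 1 library, LIF stayed called, with an adjusted p of at most 0.0331 (edgeR).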

How the results depend on the processing

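The number of genes called was 1 in edgeR, 6 with DESeq2 (LIF, ANXA1, ENSG00000279333, HSP90AA1, TNC and TIMP3) and 0 with limma voom and weights by line, where LIF had -0.775 (adjusted p = 0.0596); it was 1 to 2 when each library was left out, the 2 being LIF and ANXA1 without replicate 3 of uninduced SKMEL2. LIF stayed between -0.84 and -0.73 throughout. With the replicate number as a block, 1 gene was called and LIF had -0.77 (adjusted p = 0.0065). Same-numbered uninduced and 18 h libraries of a line had correlations of -0.04 to 0.14 in their deviations from group means. These are taken over all genes, so they cannot exclude a shared replicate effect in part of the genes. The main fit assumes no pairing. Genes at an unadjusted p under 0.05 were 364 above and 373 below 0, but 603 and 676 in a fit of only the 12 libraries compared, where lysosomal genes went from 6 to 12; they were 10 with limma voom. Within a line, genes called went from 2 to 11 with DESeq2 and 168 without a filter in SKMEL2, and from 44 to 71 and 359 in SKMEL30; these fits and the GC and length correction were chosen after seeing the data.

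The values of 10 genes changed sign in some fits, most of them near 0, but KRT5 (-3.39) and LIFR (-0.35), both at low counts, were not. MT2A became -0.0030 with at least 10 counts in every library, -0.0001 with the 12 libraries, -0.0240 after thinning and -0.0260 with the GC and length correction, where SKI became -0.0134. With each library left out in turn, values ran from -0.1005 to 0.1972 for MT2A, -0.0586 to 0.1920 for SNAI2, -0.0064 to 0.0437 for DLC1, -0.2307 to 0.0686 for CCN1, -0.0954 to 0.0394 for ADCY1, -0.1054 to 0.2629 for IL11RA, -0.0234 to 0.0388 for JAK1, -0.6507 to 0.0803 for LIFR and -3.946 to 0.8073 for KRT5. The cause was not tested. Of the values of single genes, 2575 kept their direction and side of the threshold and 27 changed sign. Genes under 2 CPM are limited by depth.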
